A study of Mus musculus with 96 samples.

Results

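Hepatokines are proteins that the liver secretes and that act on metabolism in other tissues. The 9 genes described here are Igfbp1, Igfbp2, Lect2, Hgf, Ahsg, Fetub, Angptl4, Angptl8 and Enho. They were chosen by name, as secreted liver factors and angiopoietin-like genes, and all 9 were found by symbol among the 21990 genes of the deposited table, of which 20155 have values. Liver RNA was sequenced from 48 male C57BL/6N mice, with 4 mice on chow diet (CD) and 4 on high-fat diet (HFD) at each of weeks 4, 8, 12, 16, 20 and 24. No genetic change is named for any mouse. CD held 13.5% fat and HFD 60% fat, the mice were bought at the age of 4 weeks, and food was freely available. The diets differ in ingredients besides fat, so fat content and the other ingredients cannot be told apart. Each mouse was measured at 1 time point, and the length of feeding, the age of the mice and any sequencing batch cannot be told apart. The comparison asks which secreted liver factors differed between the diets, and when.

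IGFBP1 and IGFBP2 are plasma proteins that bind insulin-like growth factors and limit their access to the receptor. Transcription of Igfbp1 is raised by the forkhead factor FoxO1 in fasting and is repressed by insulin after a meal, while Igfbp2 is restrained by insulin and raised by leptin. LECT2 is a hepatocyte protein tied to insulin resistance in muscle, and HGF is a growth factor of stellate and endothelial cells that acts on hepatocytes through the receptor MET. Ahsg and Fetub encode fetuin-A and fetuin-B, plasma proteins of the cystatin superfamily. Fetuin-A inhibits calcification and the insulin receptor, and fetuin-B keeps the egg coat penetrable by inhibiting the protease ovastacin. ANGPTL4 and ANGPTL8 inhibit lipoprotein lipase, the enzyme that releases fatty acids from circulating triglyceride. ANGPTL4 is a PPAR alpha target that is high in fasting, whereas ANGPTL8 is induced by feeding and insulin. Enho encodes adropin, a small secreted peptide linked to energy balance.

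The stretches of genome just before the start sites of 5 of these genes are shown. Igfbp2 had the largest averaged difference between the diets and Igfbp1 the widest spread between mice, the Hgf window holds a forkhead element, and Ahsg and Fetub are neighbours in the genome. They come from RefSeq on GRCm38.p6, and 7 of the 9 genes had an entry there, 6 of them at the start listed in the deposited table; Angptl4 and Enho had none. Each line holds the 250 bases that end at the base before the start site, 5′ to 3′ on the gene's strand, which is the plus strand in all 5. Capitals mark matches, searched on both strands, to CAAAACA, the core of the element bound by FoxO factors, to GTAAACA, a forkhead element, or to the E-box CACGTG. The windows are chr11:7197537-7197786 for Igfbp1, chr1:72824230-72824479 for Igfbp2, chr5:16553245-16553494 for Hgf, chr16:22891765-22892014 for Ahsg and chr16:22918132-22918381 for Fetub, each upstream of the first exon.
Igfbp1: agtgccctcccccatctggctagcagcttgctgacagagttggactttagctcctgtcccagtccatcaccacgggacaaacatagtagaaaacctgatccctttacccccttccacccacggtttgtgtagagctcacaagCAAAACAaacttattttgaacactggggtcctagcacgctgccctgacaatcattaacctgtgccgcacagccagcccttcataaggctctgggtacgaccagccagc
Igfbp2: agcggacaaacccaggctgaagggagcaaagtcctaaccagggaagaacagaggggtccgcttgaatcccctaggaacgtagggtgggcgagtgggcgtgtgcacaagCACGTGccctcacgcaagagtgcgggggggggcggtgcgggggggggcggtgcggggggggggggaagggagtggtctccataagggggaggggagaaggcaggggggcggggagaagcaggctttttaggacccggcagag
Hgf: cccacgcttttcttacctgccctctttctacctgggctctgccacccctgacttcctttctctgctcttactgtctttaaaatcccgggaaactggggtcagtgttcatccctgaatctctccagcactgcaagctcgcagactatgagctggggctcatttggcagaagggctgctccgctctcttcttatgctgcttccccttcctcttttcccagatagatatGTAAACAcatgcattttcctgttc
Ahsg: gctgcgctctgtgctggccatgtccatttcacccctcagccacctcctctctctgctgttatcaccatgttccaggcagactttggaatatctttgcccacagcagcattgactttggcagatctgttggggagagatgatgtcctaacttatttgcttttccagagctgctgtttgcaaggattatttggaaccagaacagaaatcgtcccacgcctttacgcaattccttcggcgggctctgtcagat
Fetub: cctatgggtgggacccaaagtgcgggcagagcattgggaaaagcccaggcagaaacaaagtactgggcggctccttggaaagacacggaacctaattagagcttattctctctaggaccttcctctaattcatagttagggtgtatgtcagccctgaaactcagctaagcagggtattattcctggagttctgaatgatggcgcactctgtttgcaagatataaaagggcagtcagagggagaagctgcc
Igfbp1 held 1 match to CAAAACA, from 108 to 102 bases before the start. Igfbp2 held 1 E-box and Hgf 1 match to GTAAACA, while the windows of Ahsg and Fetub held none of the 3 motifs. Among all 32851 RefSeq windows of this length, 5.56% held CAAAACA, 3.17% GTAAACA and 6.02% the E-box, and a match describes the letters and not a bound site. Ahsg and Fetub are neighbours on chromosome 16 on the same strand, with 18930 bases between the end of the first and the start of the second.

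The deposited values are FPKM, fragments per kilobase of transcript and per 1000000 mapped fragments. Read counts were not analysed here, and the depth behind a value is unknown. The FPKM of a liver library summed to between 560016 and 672369, and libraries of the same group had correlations of 0.985 to 0.997 across genes on the log2 scale. The 12 measured hepatocyte markers summed to between 38178 and 82064 FPKM in a liver library. The insulin transcript Ins2, made in islets, was listed at 0 in 20 of 48 livers but exceeded 100 FPKM in 5, with 2467 in CD306. Of the 9 genes, Enho is high in islets, with a median of 119.85 FPKM there, and the other 8 had islet medians between 0 and 1.17.

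The order of the 9 genes by median level was the same in both diets. In CD livers (24 mice), median FPKM ran from 5348 for Ahsg through 447 for Fetub, 375 for Igfbp2, 92.0 for Lect2, 87.6 for Angptl4, 38.2 for Igfbp1, 34.4 for Angptl8, 12.4 for Enho to 1.66 for Hgf. In HFD livers the medians were 4532, 385, 154, 138, 92.0, 53.7, 33.4, 6.63 and 2.02 in the same order. Ahsg stood clear of the other 8 in every mouse. Neighbours in the middle of the order overlapped: Lect2 exceeded Angptl4 in 13 of 24 CD and 19 of 24 HFD mice, and Igfbp1 exceeded Angptl8 in 11 of 24 CD and 16 of 24 HFD mice. Igfbp2 exceeded Lect2 in all 24 CD mice and in 14 of 24 HFD mice.

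**Figure D1:**
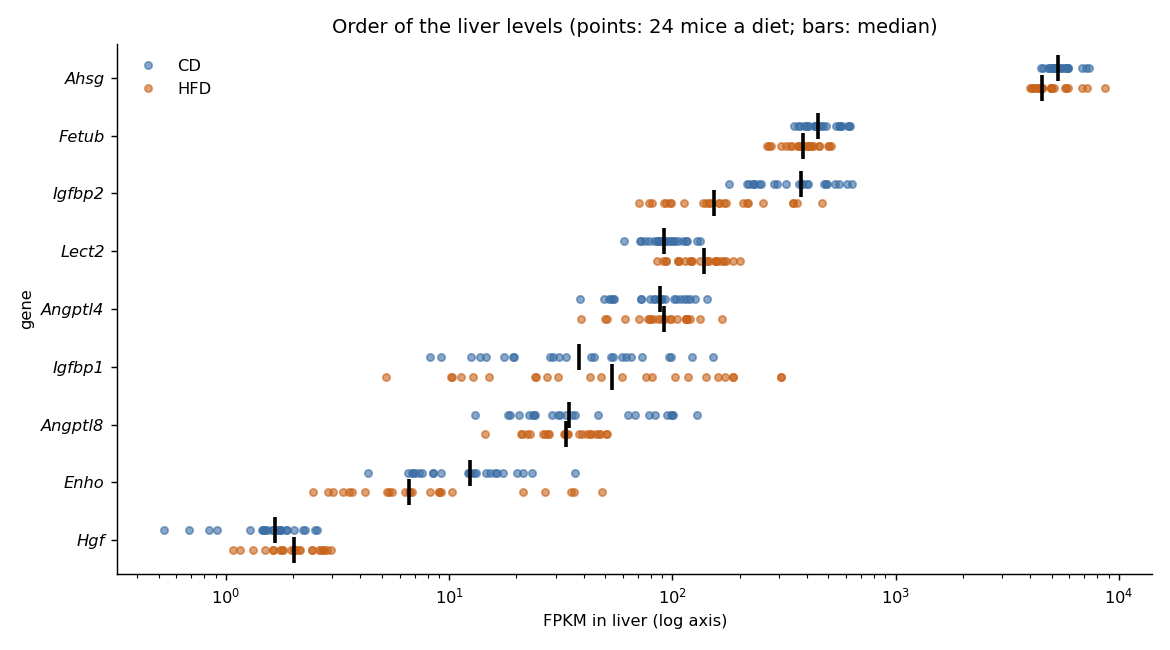
FPKM of the 9 genes in liver on a log axis, with 1 point for each of 24 CD and 24 HFD mice and a bar at the median of each diet. Ahsg lies at or above 3980.2 FPKM in every mouse, and the median of Igfbp2 is 375 in CD and 154 in HFD.

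Igfbp2, Fetub, Enho and Ahsg were lower and Lect2 and Hgf higher in HFD livers when the diet difference was averaged over the 6 weeks, while Angptl4, Angptl8 and Igfbp1 did not pass. A gene was called at an adjusted p under 0.05 by limma on log2(FPKM + 1), with Benjamini-Hochberg adjustment over all genes tested. By that rule 6 of 9 passed, 2 higher and 4 lower, against 42.6% of all 10879 genes tested, 35.8% higher and 6.78% lower. Rescaling the libraries to a common median ratio left 6 of 9 called, but 21.3% of all genes were then higher and 16.9% lower. The median difference of all genes was 0.08 in log2, and 0.00 after rescaling.

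**Figure D2:**
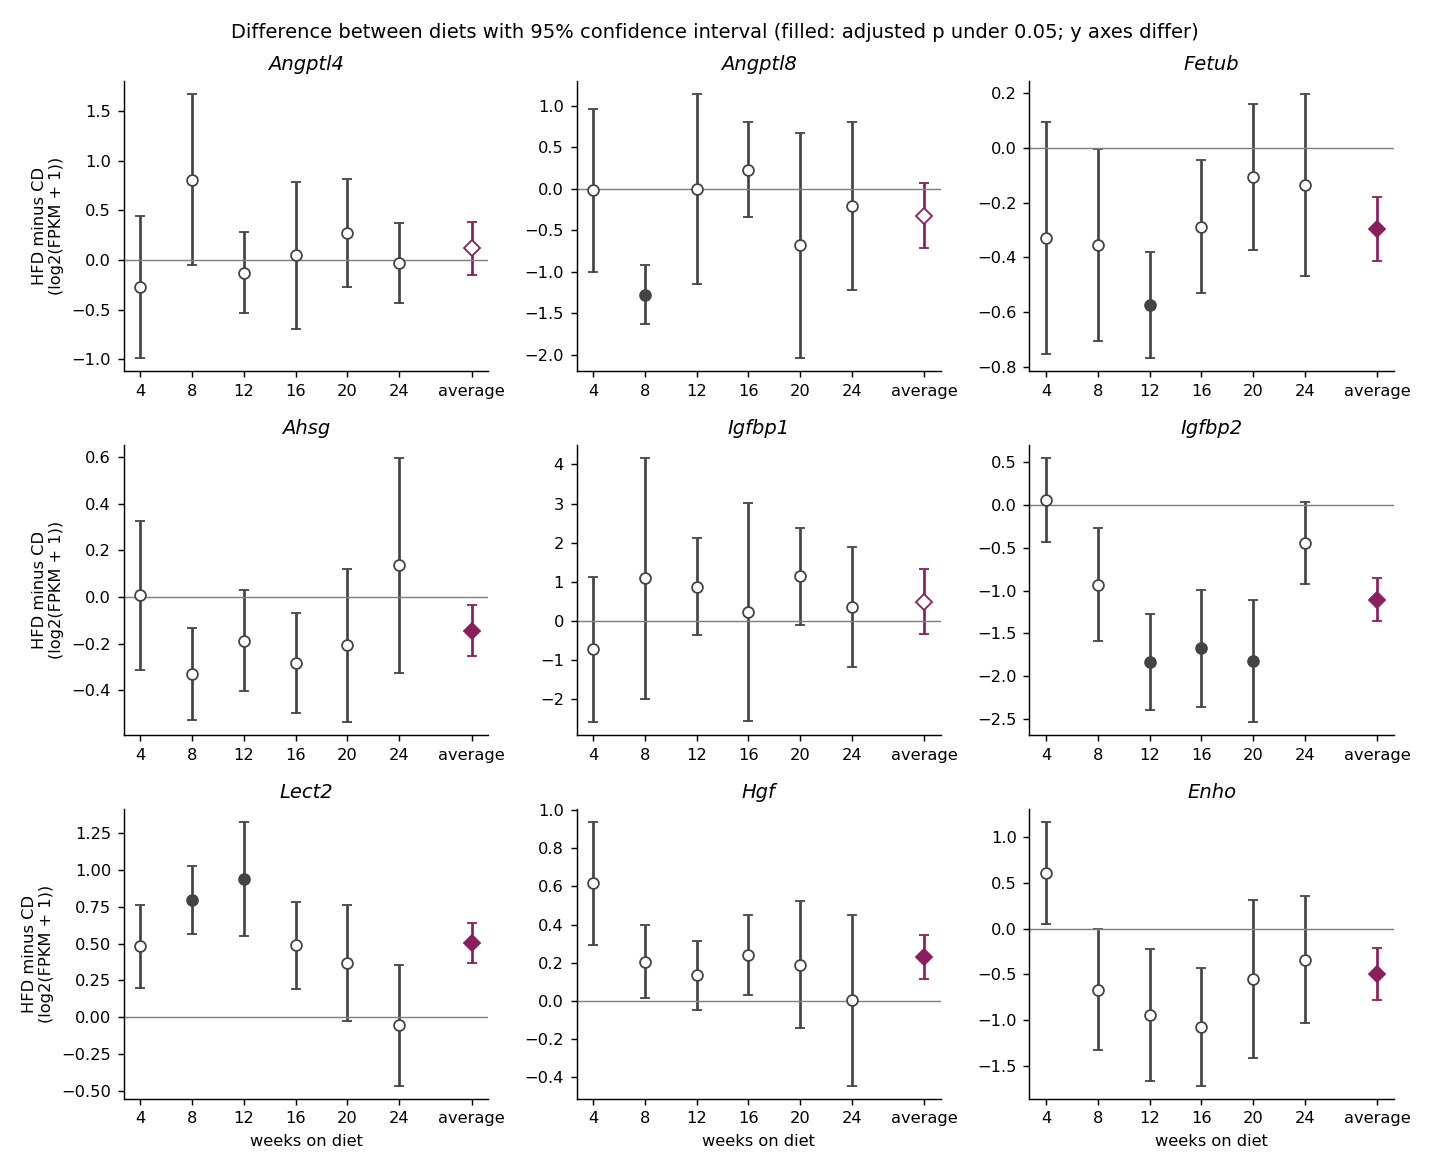
HFD minus CD difference in log2(FPKM + 1) for each gene at each week and averaged over weeks, with 95% confidence intervals from 4 against 4 livers or from all 48, filled where the adjusted p is under 0.05. The y axes differ between panels, and the interval of Igfbp1 at week 8 runs from -1.99 to 4.17 while that of Fetub at week 12 runs from -0.77 to -0.38.

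In single weeks calls were few. None passed at week 4 (0 of 9, against 0.0506% of all genes), with 3 of 9 and 1271 genes in all at an unadjusted p under 0.05. Hgf is 1 of these 3, and at week 4 only its HFD livers reached the 1 FPKM needed for testing. Week 8 had 2 of 9 (7.49%), week 12 had 3 of 9 (10.6%), and weeks 16 and 20 had 1 of 9 each (7.43% and 2.47%). At week 24, 0 of 9 passed by limma (0.837%), and 0 of 9 against 1587 of all genes had an unadjusted p under 0.05. Split by direction, genes higher in HFD made up 0.0405%, 6.17%, 9.42%, 6.74%, 1.73% and 0.650% of those tested from the first time point to the last, and genes lower in HFD 0.0101%, 1.33%, 1.22%, 0.682%, 0.746% and 0.187%. The shares that also had an absolute log2 difference of at least 1 were 0.0304%, 1.26%, 1.13%, 1.41%, 1.17% and 0.384%. The 4 HFD and 4 CD values did not overlap for 2, 4, 3, 4, 1 and 0 of the 9 genes, and for 7.88%, 15.1%, 18.1%, 13.9%, 9.09% and 10.1% of all genes. Hgf is also 1 of the 2 genes without overlap at week 4.

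**Figure D3:**
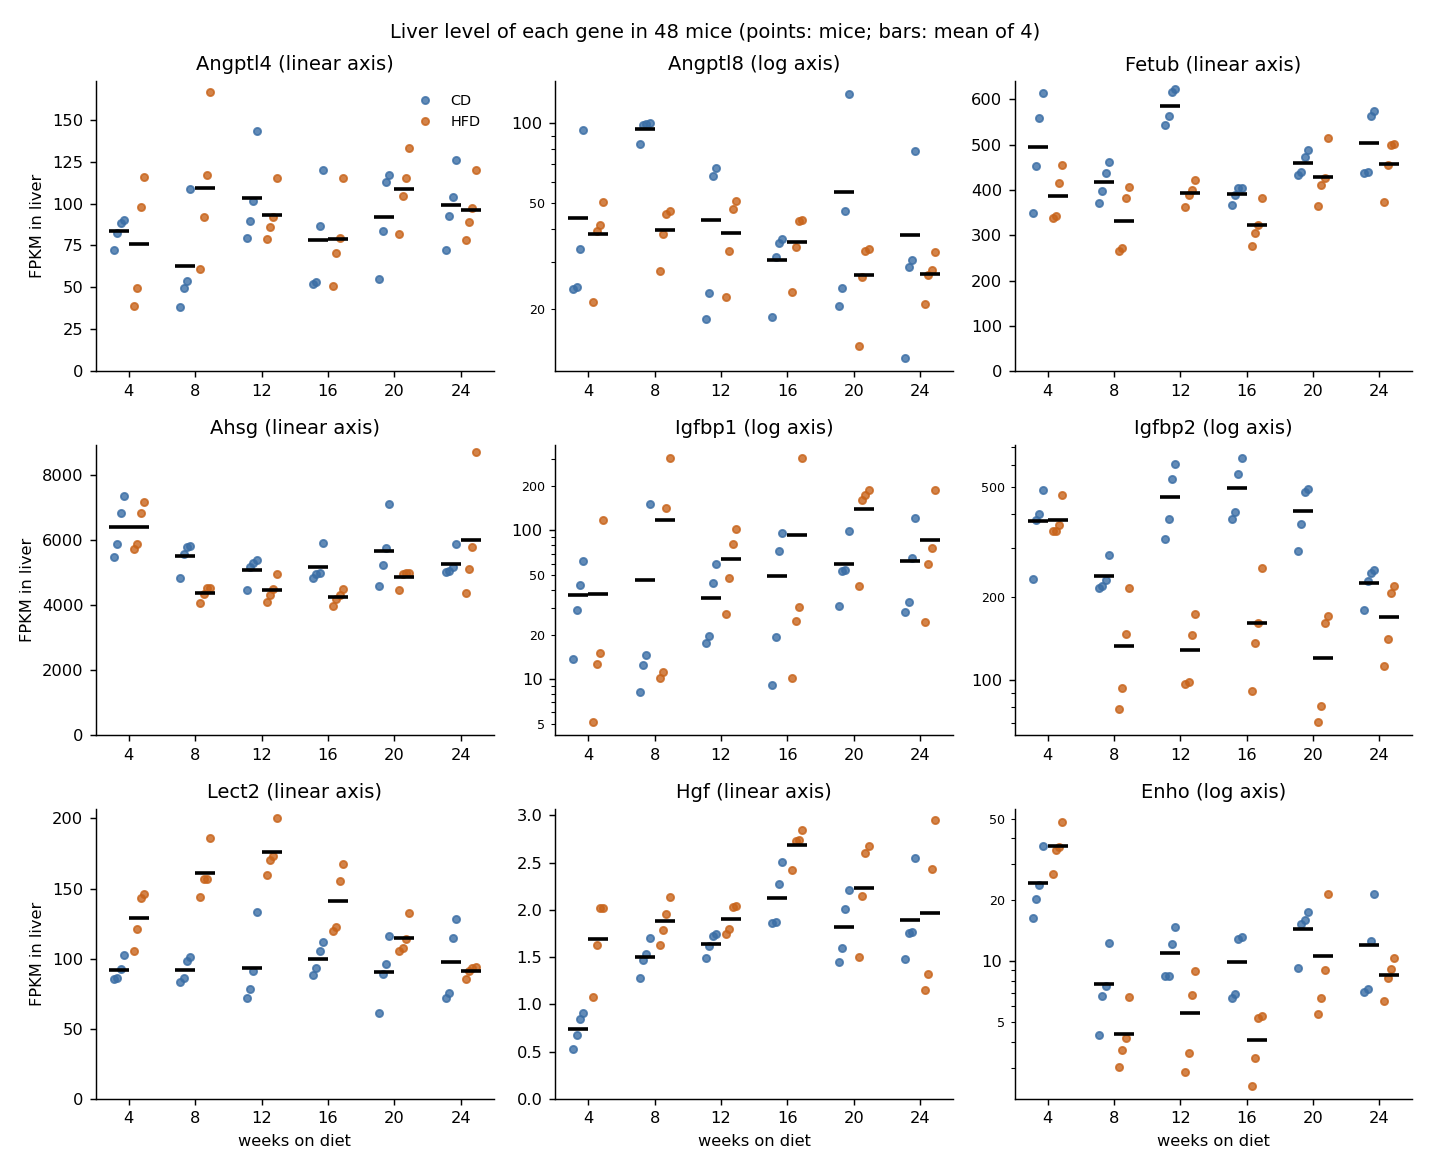
Liver FPKM of the 9 genes in each of 48 mice by weeks on diet, CD in blue and HFD in orange, with black bars at the mean of 4 mice. Panels marked as log have a log axis and the others start at 0, and the groups do not overlap for Igfbp2 at weeks 8 to 20 or for Lect2 at weeks 4 to 16.

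Igfbp2 had the largest averaged decrease of the 9 genes, and it fell at 3 weeks in the middle of the time course. The 4 CD livers of week 12 had 323, 383, 604 and 534 FPKM and the 4 HFD livers 146, 97.2, 174 and 98.4. After 16 weeks the values were 382, 559, 405.01 and 637 in CD and 255, 162, 91.7 and 137 in HFD, and after 20 weeks 293, 479, 492 and 369 in CD and 81.0, 170.3, 70.9 and 162 in HFD. Every HFD liver was below every CD liver at these 3 times. Igfbp2 fell by 1.83 ± 0.25 (SE, 4 against 4) in log2 at week 12, with an adjusted p of 0.00697 by limma, and the HFD mean was 0.279 times the CD mean. The decreases after 16 and 20 weeks were of like size, -1.68 ± 0.30 (adjusted p = 0.0146) and -1.82 ± 0.31 (adjusted p = 0.0262).

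At both ends of the time course the diets were closer. After 4 weeks the CD livers had 233, 399.5, 489.7 and 382 FPKM and the HFD livers 363, 348, 347 and 468, which overlap, with a log2 difference of 0.06 and a 95% confidence interval of -0.43 to 0.55. After 8 weeks CD had 216, 231, 220.1 and 285 and HFD 93.5, 78.8, 147 and 216, the lowest CD liver at 215.88 and the highest HFD liver at 215.82 being all but equal, and the log2 difference of -0.93 had an adjusted p of 0.0945. After 24 weeks the values were 245, 249.8, 229 and 179 in CD and 112.4, 141, 207.8 and 219 in HFD, again overlapping, with a log2 difference of -0.45 and an interval of -0.92 to 0.03. The CD mean was 226 ± 32.3 (SD, n = 4) at week 24 and 496 ± 123 at week 16. By a moderated F test over the 6 weekly differences, Igfbp2 was the 1 gene of 9 whose diet difference differed between weeks (adjusted p = 0.0158), as did 1.46% of all genes tested. Averaged over weeks it fell by 1.11 ± 0.12 (SE, 48 livers), with an adjusted p of 4.38e-09. Without HFD418 the log2 difference at week 16 was -1.63 (adjusted p = 0.0532). At week 20 it was -1.74 without CD502 (adjusted p = 0.0799), -1.72 without CD505 (adjusted p = 0.0834) and -1.86 without CD507 (adjusted p = 0.0673). Without HFD217 the log2 difference at week 8 was -1.20, with an adjusted p of 0.00873.

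Igfbp1 passed in no week, and it differed more between mice of the same group than nearly any other liver gene. After 8 weeks the 4 CD livers had 151, 12.5, 8.20 and 14.6 FPKM and the 4 HFD livers 142, 306.7, 11.2 and 10.3. After 16 weeks CD had 96.7, 72.9, 19.2 and 9.20 and HFD 305, 30.8, 10.2 and 24.5. Within the HFD group of week 16 the highest mouse exceeded the lowest by 29.9 times, and the diets overlapped at all 6 weeks. The SD within groups was 1.45 on the log2 scale, and 14 of 10879 tested genes had a larger SD, against a median of 0.184 over all genes. Averaged over weeks, the log2 difference was 0.49 ± 0.41 (SE), with a 95% confidence interval of -0.34 to 1.32 and an adjusted p of 0.35. Whether a mouse had eaten before collection, and the hour of collection, are not given in the sources used here.

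The insulin-like growth factor list held 12 further genes, of which 10 passed the filter on low values. Of these, 2 rose and 2 fell on average, against 35.8% and 6.78% of all genes. Their median log2 difference was -0.01 against 0.08 over all genes. After rescaling 2 rose and 2 fell, against 21.3% and 16.9% of all genes. Igfbp7 and Igfbp3, binding proteins that are largely made outside hepatocytes, rose by 0.52 ± 0.08 and 0.55 ± 0.12 (SE) in log2, with adjusted p of 4.57e-06 and 0.000235. Igf1, the main liver-derived growth factor, fell by 0.24 ± 0.05 (SE) with an adjusted p of 7.27e-05, and its median was 72.1 FPKM in CD and 58.2 in HFD. Igfals, whose protein holds IGF1 in plasma, fell by 0.23 with an adjusted p of 0.0145. Igfbp4 had medians of 1005 and 1011 FPKM and a log2 difference of 0.01.

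Lect2 was higher in HFD livers in the first weeks, and the diets overlapped from week 20 on. After 4 weeks the CD livers had 92.9, 85.8, 85.7 and 102 FPKM and the HFD livers 105.7, 146, 143 and 121. After 8 weeks CD had 86.4, 98.1, 83.0 and 101.01 and HFD 157, 157, 186 and 144, and after 12 weeks CD had 133, 91.2, 78.3 and 72.0 and HFD 171, 200.1, 159.97 and 173. All HFD livers were above all CD livers at each of these times, and also at week 16, where CD had 111.9, 93.3, 88.4 and 105.8 and HFD 119.5, 123, 156 and 167. Lect2 rose by 0.80 ± 0.10 (SE) in log2 at week 8 and by 0.94 ± 0.17 at week 12, with adjusted p of 0.00442 and 0.0151. The log2 differences of 0.48 at week 4 and 0.49 at week 16 had adjusted p of 0.19 and 0.0539. After 20 weeks CD had 116, 96.5, 89.1 and 60.9 and HFD 108, 113.7, 105.7 and 133, which overlap.

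After 24 weeks CD livers had 71.8, 128, 75.7 and 115 FPKM of Lect2 and HFD livers 90.9, 85.8, 93.9 and 93.6, a log2 difference of -0.06 with a 95% confidence interval of -0.47 to 0.35. The change over weeks within CD had an adjusted p of 0.95 and that within HFD an adjusted p of 0.000234, with HFD group means from 176 down to 91.0 FPKM. Averaged over weeks, Lect2 rose by 0.50 ± 0.07 (SE) in log2 with an adjusted p of 1.88e-07. The test of a difference between weeks had an adjusted p of 0.0969. The contrast of weeks 4, 8 and 12 against weeks 16, 20 and 24 was 0.47 in log2 for Lect2 (adjusted p = 0.21) and passed for 0 of 9 genes by limma, against 0.175% of all genes, with 2 of the 9, Lect2 and Fetub, at an unadjusted p under 0.05. Without CD307 the adjusted p at week 12 was 0.0535, and without HFD411 that at week 16 was 0.0227.

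Hgf had the lowest level of the 9 and was slightly higher in HFD livers on average. After 4 weeks the CD livers had 0.84, 0.53, 0.68 and 0.91 FPKM and the HFD livers 1.08, 2.02, 2.02 and 1.63, with no overlap. The gene passed the filter of 1 FPKM in 4 of 8 livers at week 4 through the HFD group alone, so its log2 difference of 0.62 there (adjusted p = 0.14) is a description. At later weeks CD ranged over 1.28 to 2.55 FPKM and HFD over 1.15 to 2.95, and the groups overlapped. Averaged over weeks, Hgf rose by 0.23 ± 0.06 (SE) in log2, with an adjusted p of 0.00107. Without week 4 the difference was 0.15, with an adjusted p of 0.0417. In CD livers Hgf changed over weeks (adjusted p = 0.000123), with means of 0.74 ± 0.17 FPKM at week 4 and 2.13 ± 0.319 at week 16 (SD, n = 4).

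Hgf is made by hepatic stellate cells in liver, and markers of these cells were higher in HFD livers as well. Of 13 stellate markers, 12 passed the filter and 11 of these rose on average, or 8 after rescaling. The shares of all genes that rose were 35.8% and 21.3%. The collagens Col1a1 and Col3a1 rose by 1.36 and 1.31 in log2, the pericyte gene Rgs5 by 0.86 and the receptor Pdgfrb by 0.49. Reln, a stellate cell glycoprotein, rose by 0.36. The sum over the list ranged from 68.6 to 226 FPKM in CD and from 109.9 to 291 in HFD livers, and 0 markers lay under 0.1 FPKM in every library. Of 12 macrophage markers, 9 rose, or 8 after rescaling, 1 of which (Gpnmb) passed the filter only through HFD livers, and the median of their sum was 123 FPKM in CD and 188 in HFD. Of 11 endothelial markers, 1 rose, with medians of 84.7 and 78.5 FPKM for the sum. In bulk liver, more cells of a type and more RNA per cell cannot be told apart, and the part of these cells in the difference of Hgf was not tested.

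Of 12 further genes of the HGF list, 8 passed the filter. On average 2 rose and 2 fell, against 35.8% and 6.78% of all genes. After rescaling 2 rose and 4 fell, against 21.3% and 16.9%. The receptor Met was at a median of 9.78 FPKM in CD and 9.95 in HFD, with a log2 difference of -0.03. Spint2, an inhibitor of the proteases that activate HGF, fell by 0.37 ± 0.04 (SE) with an adjusted p of 6.27e-09 and passed at week 8. Plau, which encodes a plasminogen activator, is among those counted as higher, but it passed the filter only through HFD livers, so its log2 difference of 0.41, from a median of 0.5 FPKM in CD, is a description. Plg, the plasminogen gene, fell by 0.17.

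The fetuin genes were both lower in HFD livers on average, by small amounts. After 12 weeks Fetub had 543, 623, 616.97 and 563 FPKM in CD and 364, 388, 399.9 and 422 in HFD, with every HFD liver below every CD liver. Fetub fell by 0.57 ± 0.09 (SE) in log2 at that week, with an adjusted p of 0.00832, and the HFD mean was 0.671 times the CD mean. At the other weeks the groups overlapped, and its log2 differences lay between -0.35 and -0.11. Averaged over weeks Fetub fell by 0.30 ± 0.06 (SE), with an adjusted p of 6.67e-05. Ahsg passed in no single week, although HFD livers lay below CD livers without overlap at week 8, with 4347, 4079.6, 4525 and 4539.9 FPKM in HFD and 5832, 4847, 5799.8 and 5571 in CD. The same held for week 16, with 4513, 4189, 3980.2 and 4313 in HFD and 4837, 5007, 4977 and 5913 in CD. Its adjusted p were 0.0551 and 0.11. At week 8 the log2 difference of -0.33 passed under some alternatives, with an adjusted p of 0.0284 after rescaling (a difference of -0.39), 0.0428 with plain variances and 0.048 without CD205.

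Averaged over weeks, Ahsg fell by 0.14 ± 0.05 (SE) in log2 with an adjusted p of 0.0271. This call was lost without week 8 (-0.11, adjusted p = 0.18), week 12 (0.0906), week 16 (0.15) or week 20 (0.0693). Of 12 further genes of the cystatin superfamily and of other plasma inhibitors, 9 passed the filter. On average 6 fell and 1 rose, against 6.78% and 35.8% of all genes. Their median log2 difference was -0.23 against 0.08 over all genes. After rescaling 7 fell and 1 rose, against 16.9% and 21.3% of all genes. Itih1, a heavy chain of the inter-alpha-trypsin inhibitors, fell by 0.23 ± 0.04 (SE) and passed at week 16. Kng1, the kininogen precursor of bradykinin, fell by 0.29 and Ambp, the precursor of alpha-1-microglobulin and bikunin, by 0.28. The member that rose was Cst3, cystatin C, a gene of many cell types, by 0.23. Of 12 hepatocyte markers, 4 fell and 0 rose on average, or 6 and 0 after rescaling, when 16.9% of all genes fell and 21.3% rose. The sum over these markers had a median of 63844 FPKM in CD and 63247 in HFD. Those that fell were Fgb, Tat, Cps1 and Ass1, and the part of hepatocyte RNA as a whole in the fetuin differences was not tested.

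Angptl8 fell at week 8 and overlapped between the diets at the other 5 weeks. After 8 weeks the CD livers had 83.5, 99.7, 98.5 and 100.7 FPKM and the HFD livers 45.6, 38.3, 46.8 and 27.8, so that the lowest CD liver was above the highest HFD liver. Angptl8 fell by 1.27 ± 0.16 (SE) in log2 with an adjusted p of 0.00419. When the spread was taken from all 12 liver groups in place of these 8 livers, the adjusted p was 0.1. After 20 weeks the CD livers had 129, 46.6, 23.9 and 20.5 FPKM and the HFD livers 33.1, 33.6, 26.4 and 14.5, and after 4 weeks 94.8, 24.2, 23.8 and 33.5 and 41.5, 50.5, 39.4 and 21.2. CD livers spread widely at both times, and HFD livers less so. Over all weeks CD ranged over 13.0 to 129 FPKM and HFD over 14.5 to 51.0. The CD mean was 95.6 FPKM at week 8 and 30.5 to 54.9 at the other weeks, and Angptl8 changed over weeks in CD (adjusted p = 0.0301). In HFD the weekly means were 26.9 to 39.6 FPKM (adjusted p = 0.76). The averaged log2 difference was -0.33 ± 0.19 (SE), with a 95% confidence interval of -0.72 to 0.06 and an adjusted p of 0.17.

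Angptl4 had no diet difference that passed the test in any week. The widest gap was at week 8, with 109, 38.4, 54.1 and 49.6 FPKM in CD and 117, 167, 61.0 and 91.9 in HFD, a log2 difference of 0.81 with an interval of -0.05 to 1.67 and an adjusted p of 0.25. The groups overlapped, as CD203 was high among the CD mice. Averaged over weeks the log2 difference was 0.12 ± 0.13 (SE), with a 95% confidence interval of -0.15 to 0.38. The lipoprotein lipase list held 15 further genes, of which 13 passed the filter. On average 6 rose and 1 fell, against 35.8% and 6.78% of all genes. After rescaling 3 rose and 3 fell, against 21.3% and 16.9%. Apoc2, the cofactor that lipoprotein lipase needs, rose by 0.69 ± 0.09 (SE) with an adjusted p of 4.68e-08 and passed at weeks 12, 16 and 20. Lpl itself, which is low in adult hepatocytes, rose by 0.62 ± 0.11 (SE), from medians of 2.44 FPKM in CD and 3.77 in HFD, and passed at weeks 12, 16 and 24.

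Other PPAR alpha targets were higher in HFD livers. Of 15 genes, 13 rose and 0 fell on average, against 35.8% and 6.78% of all genes. Rescaling gave 11 and 0, against 21.3% and 16.9%. The list's median log2 difference was 0.46 against 0.08 over all genes. At week 8, 12 of 15 rose, against 6.17% of all genes, while 0, 3, 2, 5 and 1 rose after 4, 12, 16, 20 and 24 weeks. At week 24 the list's median log2 difference was 0.06, against 0.06 over all genes. The fatty acid transporter Cd36 rose by 2.12 ± 0.14 (SE), from a median of 9.24 FPKM in CD to 72.0 in HFD, and passed at 5 of 6 weeks. Vnn1, a pantetheinase, rose by 1.65. Among lipogenic genes, which like Angptl8 answer to insulin, 4 rose and 1 fell of 13 tested, against 35.8% and 6.78% of all genes. After rescaling 3 rose and 1 fell, against 21.3% and 16.9%. Acss2, an acetyl-CoA synthetase, fell by 0.40 ± 0.10 (SE). Of 11 tested FoxO1 and fasting genes, 3 rose and 3 fell, against 35.8% and 6.78% of all genes. Rescaling gave 3 and 3 as well, against 21.3% and 16.9%. Gadd45a and Cdkn1a, which also answer to stress, rose, the first by 0.77 and the second from a median of 1.49 FPKM in CD to 5.58 in HFD, and Pck1, an enzyme of gluconeogenesis, fell by 0.72.

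**Figure D4:**
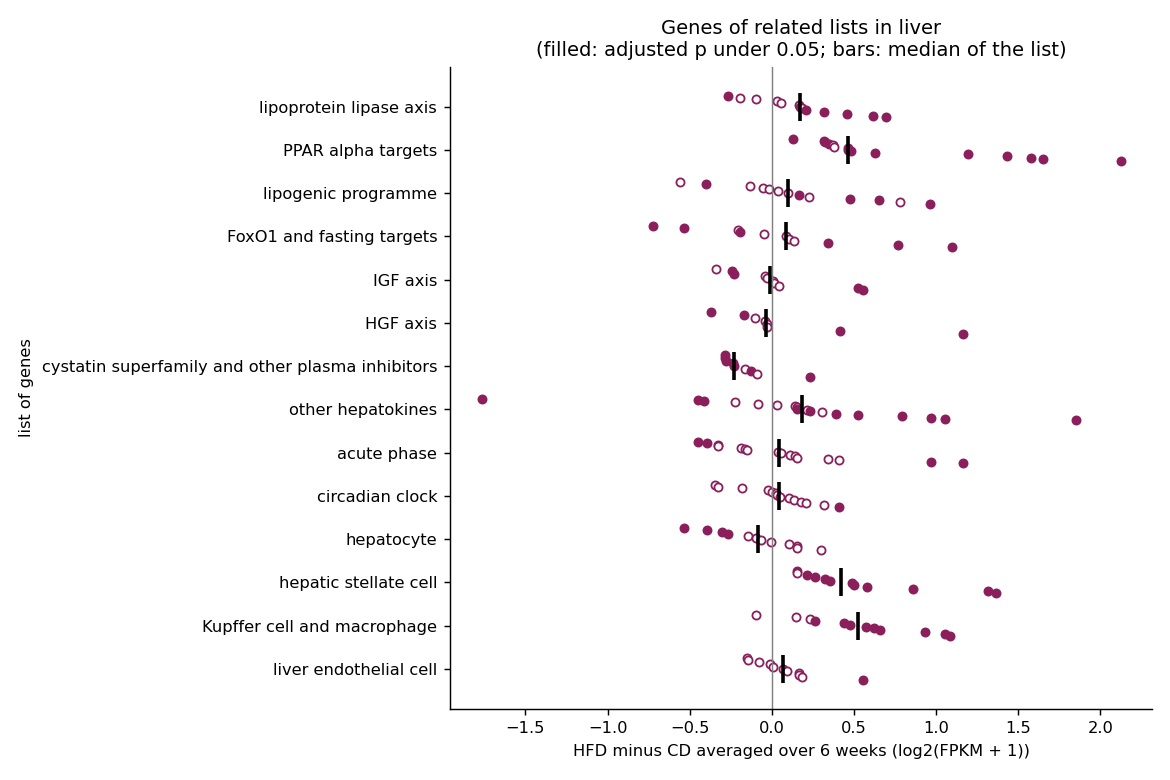
Averaged HFD minus CD difference in log2(FPKM + 1) of the genes in each related list and in lists of cell type markers, with 1 point a gene, filled where the adjusted p is under 0.05, and a bar at the median of the list. The median of the PPAR alpha targets is 0.46 and that of the plasma inhibitors -0.23.

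Enho was more abundant in islets than in liver. In islets of the same mice its FPKM was 81.8 to 171, against 2.45 to 48.3 in liver. After 4 weeks the CD livers had 23.5, 36.7, 20.2 and 16.4 FPKM and the HFD livers 35.2, 36.4, 26.8 and 48.3. After 12 weeks CD had 8.50, 12.1, 14.7 and 8.48 and HFD 2.87, 6.81, 8.96 and 3.54, and after 16 weeks CD had 6.90, 6.56, 13.2 and 12.9 and HFD 5.40, 2.45, 5.28 and 3.34. The groups overlapped at weeks 4 and 12 and not at week 16. Enho changed over weeks in CD (adjusted p = 0.00678) and in HFD (adjusted p = 2.42e-07), as did 5 of the 9 genes in each diet and 55.0% and 50.2% of all genes tested. At the median ratio of Enho to Ins2 in islets, the Ins2 level of CD306 goes with 0.603 FPKM of Enho, and the Enho level of that liver was 12.1. Whether islet RNA added to Enho in the livers was not tested.

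The diet difference of Enho did not pass in any single week. It was 0.61 ± 0.25 (SE) in log2 at week 4 (adjusted p = 0.35), then -0.94 ± 0.32 after 12 weeks (adjusted p = 0.0868) and -1.07 ± 0.28 after 16 weeks (adjusted p = 0.057). Averaged over weeks Enho fell by 0.49 ± 0.14 (SE) in log2, with an adjusted p of 0.00504. Without week 16 the average was -0.38 with an adjusted p of 0.0606. Single livers decided some weeks: without HFD411 the adjusted p at week 16 was 0.0354, without HFD316 that at week 12 was 0.0338, and without HFD518 that at week 20 was 0.0464. Without CD306, the liver of highest Ins2, the log2 difference at week 12 was -0.88 (adjusted p = 0.165). Without CD407 that at week 16 was -0.93 (adjusted p = 0.135).

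Within groups, some of these genes varied together from mouse to mouse. Correlations were taken over the 48 livers as deviations from group means of log2(FPKM + 1), with mice permuted within groups. Of the 36 pairs, 6 passed by both measures after adjustment. The share of pairs that would pass among all tested genes was not computed, so this count has no background beside it. The closest pair was Igfbp1 and Angptl4, both fasting genes, with Pearson r = 0.74 (permutation p = 1.00e-05, adjusted p = 0.00036) and Spearman rho = 0.70 (permutation p = 1.00e-05, adjusted p = 0.00036), the raw p being the smallest that 100000 resamples can give. For this pair r was 0.70 without the 2 farthest mice, 0.71 in CD, 0.78 in HFD and 0.29 to 0.93 within weeks. In 6 of the 12 groups a single mouse was the highest for both genes, among them CD203, HFD212, HFD118 and HFD411.

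**Figure D5:**
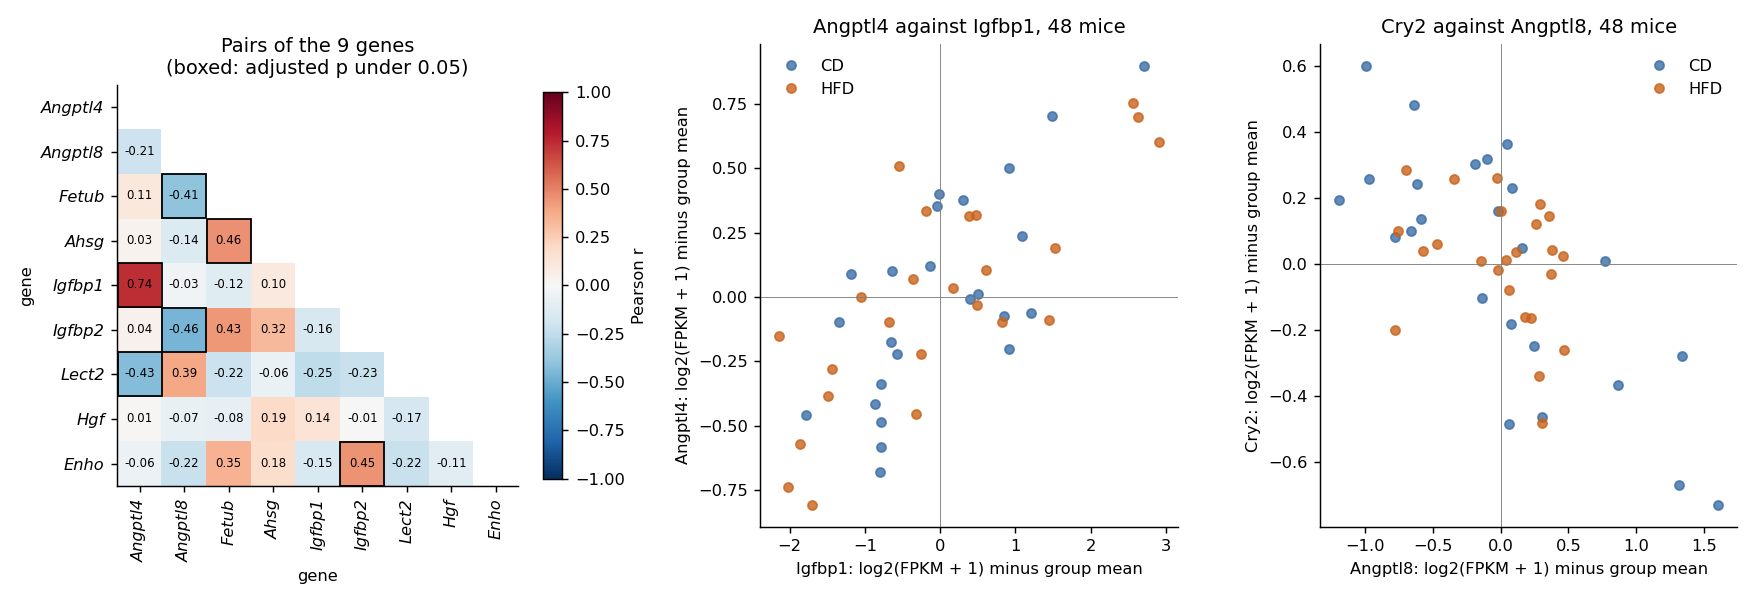
Left, Pearson r for the 36 pairs of genes over 48 livers as deviations from group means, boxed where the adjusted p is under 0.05. Middle and right, deviations in log2(FPKM + 1) of Angptl4 against Igfbp1 (r = 0.74) and of Cry2 against Angptl8 (r = -0.66), with 1 point a mouse.

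The other 5 pairs were weaker. Ahsg and Fetub, the neighbouring fetuin genes, had Pearson r = 0.46 (permutation p = 0.00157, adjusted p = 0.0188) and Spearman rho = 0.48 (permutation p = 0.00301, adjusted p = 0.0338), and r was 0.39 without the 2 farthest mice, 0.49 in CD, 0.44 in HFD and -0.54 to 0.97 within weeks. Igfbp2 and Enho had Pearson r = 0.45 (permutation p = 0.00475, adjusted p = 0.0415) and Spearman rho = 0.46 (permutation p = 0.00376, adjusted p = 0.0338), and r was 0.40 without the 2 farthest mice, 0.36 in CD, 0.52 in HFD and 0.07 to 0.80 within weeks. Angptl8 went against Igfbp2, with Pearson r = -0.46 (permutation p = 0.00115, adjusted p = 0.0188) and Spearman rho = -0.43 (permutation p = 0.00641, adjusted p = 0.0376), and r was -0.38 without the 2 farthest mice, -0.67 in CD, -0.36 in HFD and -0.96 to -0.24 within weeks. It also went against Fetub, with Pearson r = -0.41 (permutation p = 0.0082, adjusted p = 0.0492) and Spearman rho = -0.44 (permutation p = 0.00258, adjusted p = 0.0338), and r was -0.42 without the 2 farthest mice, -0.36 in CD, -0.56 in HFD and -0.62 to 0.14 within weeks. Angptl4 went against Lect2, with Pearson r = -0.43 (permutation p = 0.00576, adjusted p = 0.0415) and Spearman rho = -0.42 (permutation p = 0.0105, adjusted p = 0.0472), and r was -0.42 without the 2 farthest mice, -0.36 in CD, -0.59 in HFD and -0.79 to -0.19 within weeks. Mice high in the feeding-induced Angptl8 thus tended to be lower in Igfbp2 and Fetub than others of their group. With the fasting genes Igfbp1 and Angptl4, Angptl8 had Pearson r of -0.03 and -0.21, which did not pass (permutation test, adjusted p = 0.86 and 0.41).

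Igfbp1, Angptl4 and Angptl8, which answer to feeding, were then compared in the same way with the genes of 4 lists, a choice made after the values were seen. Of 159 pairs, 25 passed by Pearson and 21 by both measures. The share of all tested genes that would pass with these 3 genes was not computed. Counts within the lists therefore have no background share beside them, and the correlations were not repeated after rescaling. Igfbp1 had a positive r with 11 of 11 FoxO1 and fasting genes, 4 of which passed by Pearson. It also had a positive r with 11 of 15 PPAR alpha targets, of which 2 passed, among them Pdk4. With Pdk4, which spares glucose in fasting, Igfbp1 had Pearson r = 0.83 (permutation p = 1.00e-05, adjusted p = 0.00053) and Spearman rho = 0.77 (permutation p = 2.00e-05, adjusted p = 0.000795), and r was 0.78 without the 2 farthest mice, 0.66 in CD, 0.90 in HFD and -0.00 to 0.97 within weeks. With Irs2, an insulin receptor substrate repressed by insulin, it had Pearson r = 0.71 (permutation p = 5.00e-05, adjusted p = 0.00132) and Spearman rho = 0.66 (permutation p = 2.00e-05, adjusted p = 0.000795), and r was 0.63 without the 2 farthest mice, 0.62 in CD, 0.77 in HFD and 0.20 to 0.93 within weeks. Angptl4 had a positive r with 15 of 15 PPAR alpha targets, 5 of which passed by Pearson. The same held for Angptl4 with 11 of 11 FoxO1 and fasting genes, 3 of which passed. With Pdk4 it had Pearson r = 0.69 (permutation p = 1.00e-05, adjusted p = 0.00053) and Spearman rho = 0.67 (permutation p = 3.00e-05, adjusted p = 0.000954), and r was 0.67 without the 2 farthest mice, 0.66 in CD, 0.73 in HFD and 0.10 to 0.83 within weeks.

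Angptl8 was correlated with clock genes, whose transcripts cycle over the day. Of 14 clock genes, 2 passed by Pearson with a positive and 6 with a negative correlation. With Igfbp1 and with Angptl4, 0 clock genes passed. Angptl8 also had a positive r with 8 of 15 PPAR alpha targets, of which 1 passed by Pearson. It had a positive r with 5 of 11 FoxO1 and fasting genes, of which 1 passed. With Cry2, a repressor of the clock, it had Pearson r = -0.66 (permutation p = 1.00e-05, adjusted p = 0.00053) and Spearman rho = -0.62 (permutation p = 2.00e-05, adjusted p = 0.000795), and r was -0.59 without the 2 farthest mice, -0.76 in CD, -0.31 in HFD and -0.85 to -0.26 within weeks. With Clock, an activator, it had Pearson r = 0.55 (permutation p = 3.00e-05, adjusted p = 0.000954) and Spearman rho = 0.56 (permutation p = 5.00e-05, adjusted p = 0.00114), and r was 0.49 without the 2 farthest mice, 0.60 in CD, 0.45 in HFD and 0.26 to 0.69 within weeks. With Mlxipl, which encodes the carbohydrate-responsive factor ChREBP, it had Pearson r = 0.63 (permutation p = 6.00e-05, adjusted p = 0.00136) and Spearman rho = 0.64 (permutation p = 4.00e-05, adjusted p = 0.00106), and r was 0.59 without the 2 farthest mice, 0.73 in CD, 0.44 in HFD and -0.35 to 0.88 within weeks. Mlxipl was the 1 gene that passed by Pearson of 13 lipogenic genes, 10 of which had a positive r with Angptl8. Of the 14 clock genes tested between the diets, 1 rose and 0 fell on average, against 35.8% and 6.78% of all genes. Rescaling gave 1 and 1, against 21.3% and 16.9%. The part of feeding state and hour of collection in these relations was not tested.

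Across the 12 group means, the pattern of each gene was set beside that of every other tested gene by Pearson r over 12 points, as a description. Closest to Hgf were Gucy1a3 (0.95), Lsm14a (0.94) and Rgs5 (0.94), the last a stellate and pericyte marker. Closest to Lect2 were Ociad2 (0.94), Bdh1 (0.92) and Krt23 (0.92), and among the closest to Igfbp2 were Cyp2g1 (0.92) and Zfp275 (0.91). Fetub was nearest to Rps3 (0.93), Trim27 (0.88) and Hgsnat (0.86), and Ahsg to Plxnb1 (0.96), Scap (0.95) and Qars (0.93). Enho was nearest to Tigd5 (0.96), Egln2 (0.94) and Upk3b (0.93). For Igfbp1 the nearest were Lig1 (0.94), Ubb (0.93) and P4ha2 (0.92), for Angptl4 Pole4 (0.90), Bcl10 (0.90) and Slc16a5 (0.87) and for Angptl8 Tuba4a (0.87), Cyp2c55 (0.86) and Serpina9 (0.86). The 12 points share the mice of each group and any batch of each week.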

How the data were processed

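Poly(A) RNA from the livers and islets of 48 mice was sequenced on a BGISEQ-500, and the 48 islet libraries were used here only for levels. Per the labels and the submitters' processing notes, reads were handled with HISAT2 2.0.4, Bowtie2 2.2.5 and RSEM 1.1.12 on GRCm38.p5, and the authors deposited FPKM values per gene with 2 decimals. FPKM divides by a library's total, so a rise of abundant genes lowers the others. Columns with the authors' own comparisons, group means and gene modules were not used.

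FPKM values were tested on log2(FPKM + 1), a scale that understates changes of low genes, with limma 3.58.1 in R 4.3.3 (trend and robust variances). Each week compared 4 HFD with 4 CD livers, and the average over weeks, the differences between weeks and changes within a diet came from 1 fit of 12 groups. Genes needed 1 FPKM in at least 4 livers, and p-values were adjusted over all genes tested. Python 3.11.15, numpy 2.4.6, pandas 2.3.3, scipy 1.17.1 and matplotlib 3.10.9 gave the correlations and figures. Each replicate is a separate mouse by its number, and which mice shared a cage is not given in the sources used here. On simulated data, 83.5% of 200 genes changed by 1 in log2 were called at week 4 (9875 genes), 86.5% at week 16 (10113 genes), and 93.5% of those changed by 0.5 in the average (10879 genes). Unchanged genes called numbered 13, 6 and 11. Values were drawn independently and the 200 genes at random. The shares do not describe Igfbp2, Angptl4, Enho, Angptl8 and Igfbp1, whose SDs within groups were 0.443 to 1.45 against a median of 0.184.

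The 9 genes and the lists were chosen with earlier results of these data known. From each pathway list, up to 3 genes called in most weeks were named, with ties broken by the p of the average, and for each of the 9 genes the 3 with the most similar group means. Other genes named were chosen after their values were seen. Some genes that this rule names are not reported here. Alternatives were another pseudocount, no filter, median ratio scaling, plain variances, 1 fit for all weeks, a fold change minimum, and leaving out each liver or week. The change over weeks in HFD, the correlations with list genes and the rescaled list counts were added after seeing the data.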

Additional observations from a re-analysis of the deposited data

Results flagged for a closer look

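In groups of 4 mice, 8 of 108 groups had a mouse far from the other 3 by Dixon's 95% criterion, applied to FPKM without a log. Chance gives about 5.4 where values are normally distributed, which was not tested for these FPKM. Igfbp1 had 3 of the 8. CD203 stood at 151.46 FPKM among CD livers of week 8, HFD118 at 117.22 among HFD livers of week 4, and HFD411 at 305.35 among HFD livers of week 16. Without CD203 the log2 difference of Igfbp1 at week 8 went from 1.09 to 1.99, and without HFD212, the highest HFD liver of that week, to 0.21. Without HFD118 that at week 4 went from -0.73 to -1.58, and without HFD411 that at week 16 went from 0.23 to -0.74. By limma none of these passed, with adjusted p of 0.42, 0.95, 0.33 and 0.62 without the mice in that order.

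HFD118 was also the far mouse for Igfbp2, at 467.68 FPKM among HFD livers of week 4, and CD203 for Angptl8, at 83.5 and the lowest of the CD livers of week 8. CD101 had 94.8 FPKM of Angptl8 among CD livers of week 4, and the log2 difference there was -0.02 with it and 0.43 without it. Ahsg had a high mouse in CD407, at 5912.97 FPKM in CD livers of week 16, and a low mouse in HFD517, at 4479.18 in HFD livers of week 20.

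The diet difference of Igfbp2 differed between weeks, with an adjusted p of 0.016 by limma's moderated F test. Its log2 differences were 0.06, -0.93, -1.83, -1.68, -1.82 and -0.45 from week 4 to week 24.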

How the results depend on the processing

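No result for the 9 genes that passed the test changed direction under any alternative tried. With 1 fit for all 12 groups, 1 of the 9 genes was called at week 4 (Hgf), 1 at week 8 (Lect2) and 2 at week 16 (Igfbp2 and Enho). With plain variances or rescaling, or without CD205, Ahsg was called as well at week 8, giving 3. With plain variances 2 were called at week 16, and with a log2 difference of at least 1 also required, 1 was called at week 8 and 1 at week 12. The cause was not tested, beyond the added requirement itself. Leaving out 1 liver gave 2 to 3 calls after 8 weeks, 2 to 4 after 12, 0 to 3 after 16 and 0 to 2 after 20, 0 after 4 or 24, 6 for the average, 1 to 2 for a difference between weeks (2 without CD304, CD507 or CD601) and 4 to 5 for a change over weeks in CD. Of the values recomputed without 1 liver, 853 kept their side of the threshold, 6 gained and 5 lost a call. Without week 16 the average passed for 4 of 9 genes, and without other weeks for 5 or 6. A pseudocount of 0.1 and no filter changed no call of the 9.

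Shares of all genes called moved more. With 1 fit for all groups, 1.03% of genes were called at week 4 against 0.0506%, 14.9% at week 12 against 10.6%, 9.23% at week 20 against 2.47% and 3.67% at week 24 against 0.837%. With no filter the shares were 3.17%, 4.16%, 0.668% and 0.451% after 8, 12, 20 and 24 weeks, and at week 4 a pseudocount of 0.1, no filter or rescaling each left 1 gene. Rescaling gave 35 genes against 19 for early against late weeks and 270 against 159 for a difference between weeks. Without 1 liver the shares ranged over 0% to 0.61%, 3.25% to 11%, 1.99% to 20.9%, 3.07% to 15.2%, 0.762% to 7.85% and 0.136% to 1.33% from week 4 to week 24. Among called genes, rescaling moved the share higher in HFD from 84.1% to 55.7% in the average, from 82.3% to 69.1% after 8 weeks, from 88.6% to 61.8% after 12 and from 90.8% to 76.3% after 16. The median of all genes at week 12 went from 0.11 to 0.01 in log2, and Fetub, Igfbp2 and Lect2 were then -0.69, -1.95 and 0.82, all still called.

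No paired analysis was possible because CD and HFD mice carry separate numbers and share none. Read counts were not used, so what depth limits is unknown.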

Other observations

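Some other secreted liver factors also differed between the diets. Of 19 further hepatokine genes, 18 passed the filter. On average 8 rose and 3 fell, against 35.8% and 6.78% of all genes. After rescaling 7 rose and 4 fell, against 21.3% and 16.9%. Inhbe, which encodes an activin subunit, rose by 0.52 ± 0.10 (SE) in log2 with an adjusted p of 0.000103, and Sparc, a matrix protein, rose by 0.79 ± 0.12. Gpnmb, also a macrophage gene and counted among the genes that rose, passed the filter only through HFD livers, so its medians of 0.06 FPKM in CD and 1.17 in HFD are a description. Chosen after their values were seen, Gdf15, a stress-induced hormone, rose by 1.85 and Hamp, which encodes the iron regulator hepcidin, fell by 1.77, with medians of 604.8 and 254 FPKM.

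Some acute phase genes differed, in both directions. Of 16 tested, 2 rose and 3 fell on average, against 35.8% and 6.78% of all genes. Rescaling gave 2 and 3 as well, against 21.3% and 16.9%. At week 8, 7 rose and 2 fell, against 6.17% and 1.33% of all genes, 3 rose after 12 weeks and 1 after 16, and 0 passed at week 4, 20 or 24 by limma. The list's median log2 difference was 0.57 at week 8, -0.74 at week 4 and -0.48 at week 24. Saa3 and Lcn2, both induced in inflammation, rose by 1.17 and 0.97 on average, with single HFD livers at 974 FPKM of Saa3 and 3158 of Lcn2. The fibrinogen chain Fgb fell by 0.40. Of 7 adipocyte markers, 3 passed the filter and 3 rose, namely Cidec, Cfd and Fabp4, of which Cfd passed the filter only through HFD livers, while Adipoq, Lep, Plin1 and Retn had a median of 0 FPKM over the livers.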
